A study of Mus musculus with 16 samples.

Results

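Respiratory complex III is the enzyme that strobilurin fungicides block in fungi, and its 10 genes were followed here in mouse neural cells exposed to 4 of these fungicides. The members were taken by gene symbol from the tables of read counts: mt-Cytb, encoded in the mitochondrial genome, and the nuclear genes Cyc1, Uqcrfs1, Uqcrc1, Uqcrc2, Uqcrb, Uqcrq, Uqcrh, Uqcr10 and Uqcr11. They are 10 of the 54658 genes listed, and all 10 passed the minimum average of 10 CPM (a gene's read counts scaled by the total counted reads of its library), as 9758 genes did in all.

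The cells were C17.2α cells, a line derived from C17.2 neural cells of the mouse cerebellum and engineered to overexpress the thyroid hormone receptor TRα1. This holds for all groups, so no library shows cells without the added receptor. All cultures grew without the hormone T3, in medium with newborn calf serum stripped with charcoal, and were lysed 24 h after addition of the solvent DMSO (2 libraries), azoxystrobin, picoxystrobin, pyraclostrobin or trifloxystrobin. Azoxystrobin was given at 100 and 1000 nM and the other compounds at 30, 100, 300 and 1000 nM, with 1 library per concentration. The 4 compounds share the strobilurin pharmacophore in different forms, a methoxyacrylate in azoxystrobin and picoxystrobin, a methoxycarbamate in pyraclostrobin and an oximinoacetate in trifloxystrobin.

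Each library held between 12292390 and 18188099 counted reads. The counts of azoxystrobin at 100 nM were identical to those of DMSO replicate 2 over all 54658 genes. Which of both labels the counts belong to cannot be told from the tables. They were kept as DMSO, which leaves 15 libraries and a single azoxystrobin library, so the DMSO mean and SD (n = 2) rest on that choice. With the other choice a single control would remain, so calls of a compound against DMSO rest on it too. No concentration was repeated. The 4 concentrations therefore stand in for replicates of a compound, and any response to concentration widens its standard deviation (SD). According to the authors, the libraries of this strobilurin comparison all came from a single experiment, so p-values measure only the spread between these libraries. Of 7 neural progenitor markers, Nes, Sox2, Vim and Cdh2 averaged 165, 39.7, 2845 and 199 CPM, while Msi1, Fabp7 and Pax6 were at 6.01, 0.981 and 0.0467 CPM, so the label rests on part of its markers. The neuronal marker Rbfox3, the astrocyte marker Aqp4 and the microglial marker Ptprc had no read in any library, whereas Col1a1, a fibroblast collagen, averaged 3208 CPM. Each is a single gene from a longer marker list for its cell type. The other genes of those lists, and all oligodendrocyte markers, are not reported here, so these values do not exclude other cell types. The picoxystrobin library at 1000 nM stood apart from the other picoxystrobin libraries. Its log2 change from DMSO correlated across genes with GC content at r = 0.202, against -0.634, -0.704 and -0.738 at 30, 100 and 300 nM, over 9725 genes that share their libraries, and results that rest on it are given with and without it.

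Complex III, also called the cytochrome bc1 complex, sits in the inner mitochondrial membrane. It oxidizes ubiquinol, the reduced carrier made by complex I, complex II and other dehydrogenases, passes the electrons to cytochrome c, and moves protons across the membrane. Cytochrome b, the product of mt-Cytb, holds the site where ubiquinol is oxidized and the site where ubiquinone is reduced, and strobilurins occupy the former. All other subunits are made in the cytosol from nuclear genes and imported, so that the complex needs transcripts from both genomes.

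The mt-Cytb transcript (1144 bases, chrM:14145-15288, plus strand, GRCm38) covers 381 codons, 11 of which are TGA, a stop in the nuclear code that mitochondria read as tryptophan. Of the members it alone encodes the drug-binding protein, and the stretches that form its quinol oxidation site are printed to show what the reads counted here encode. Capitals mark, in the first, the 4 codons of the motif conserved at the quinol oxidation site (from codon 270, chrM:14952-14963) and, in the second, the codon at the position whose replacement makes fungi resistant to strobilurins (codon 142, chrM:14568-14570).
mt-Cytb quinol oxidation loop, chrM:14934-14981: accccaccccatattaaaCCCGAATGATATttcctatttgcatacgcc
mt-Cytb stretch of the resistance position, chrM:14553-14600: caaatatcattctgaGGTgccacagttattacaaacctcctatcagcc

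The nuclear members lie on 7 chromosomes of the same build and none overlaps another member. Uqcrc2 (chr7:120635176-120659524, plus strand) overlaps Pdzd9 on the other strand, with 85 counts in all against 10777. Uqcrb (chr13:66900617-66905378, minus strand) overlaps Gm10767 on the other strand, with 397 counts against 10884. Uqcrh (chr4:116066965-116075071, minus strand) overlaps the processed pseudogene Gm12854, which held 7559 counts against 43314, so that part of the Uqcrh reads may be split between them. Whether the counting used the strand is not given in the sources used here, and reads of overlapping genes on opposite strands cannot be told apart without it.

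The levels of the 10 transcripts in the same cells differed widely. Per kilobase of the longest coding transcript, mt-Cytb had a median of 14390 CPM over the 15 libraries. The nuclear members had medians, in CPM per kilobase, of 347 for Uqcrh, 244 for Uqcr10, 151 for Uqcrq, 150 for Uqcr11, 126 for Uqcrfs1, 91.5 for Cyc1, 81.4 for Uqcrb, 40.5 for Uqcrc1 and 23.8 for Uqcrc2. The ranges over the 15 libraries overlapped between Uqcrh and Uqcr10, and between neighbours from Uqcrq down to Uqcrb. They did not overlap between mt-Cytb (2654 at least) and Uqcrh (372 at most), Uqcr10 (179) and Uqcrq (177), Uqcrb (61.1) and Uqcrc1 (49.3), or Uqcrc1 (30.02) and Uqcrc2 (29.02). The order depends on which transcript is counted, as the longest coding transcript of Uqcrq has 1521 bases and that of Uqcr10 434. In DMSO, mt-Cytb stood 118 and 121 times above the median nuclear member per kilobase.

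mt-Cytb was the member that varied most. It was at 16462 and 15626 CPM in the DMSO libraries and at 19506 CPM with azoxystrobin at 1000 nM. With pyraclostrobin it was at 21275 CPM at 30 nM, 19735 at 100 nM, 4787 at 300 nM and 3036 at 1000 nM. Both higher concentrations were therefore far below every DMSO library, and both lower ones above them. With picoxystrobin the levels were 19003, 17857 and 21609 CPM at 30, 100 and 300 nM and 6167 CPM at 1000 nM. Trifloxystrobin gave 13484, 16501, 15483 and 13073 CPM in the order of concentration, around and below the controls. The raw counts of the low libraries were 75790 and 53118 (pyraclostrobin 300 and 1000 nM) and 97031 (picoxystrobin 1000 nM), against 269369 and 265911 in DMSO, so counting error is small beside these differences.

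**Figure D1:**
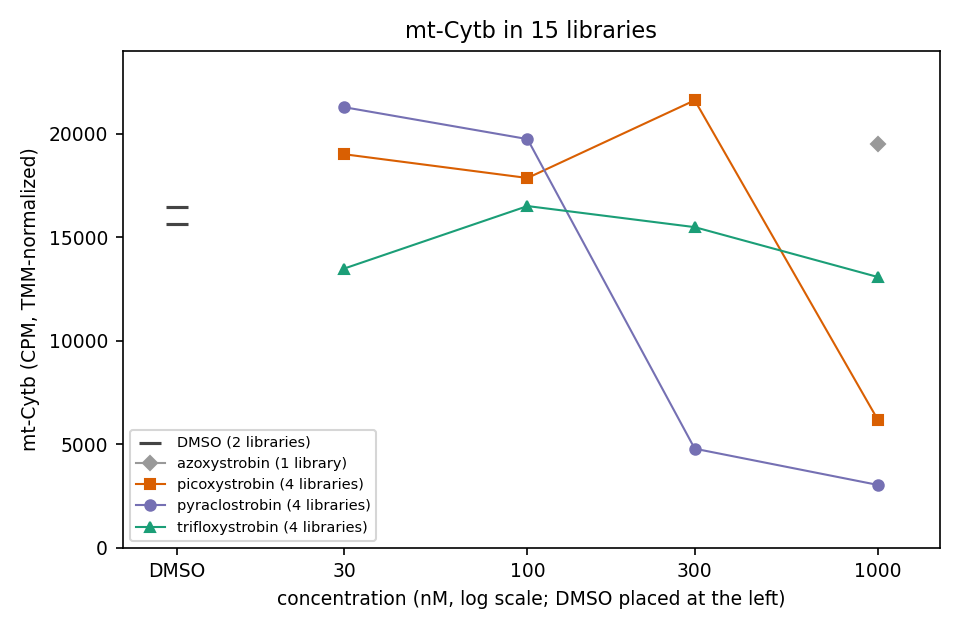
mt-Cytb in CPM (vertical axis) against concentration in nM on a log axis, with 1 point per library, lines joining the libraries of a compound and the 2 DMSO libraries as bars at the left. Pyraclostrobin at 300 and 1000 nM (4787 and 3036 CPM) and picoxystrobin at 1000 nM (6167 CPM) lie far below the other 12 libraries, which range from 13073 to 21609 CPM.

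Relative to the DMSO mean, on the log2 scale, mt-Cytb was at -1.74 and -2.40 with pyraclostrobin at 300 and 1000 nM and at -1.38 with picoxystrobin at 1000 nM. Between the DMSO libraries the difference was 0.08 for mt-Cytb and had a median size of 0.10 over all tested genes. Ranked among the 9758 tested genes of its library, mt-Cytb had the 5th lowest change with pyraclostrobin at 300 nM, the 3rd lowest at 1000 nM and the lowest of all with picoxystrobin at 1000 nM. Genes over 2-fold below the DMSO mean made up 0.769%, 1.5% and 0.113% of tested genes in these libraries, and mt-Cytb was the only member among them. In the other libraries no gene (azoxystrobin 1000 nM and trifloxystrobin 30 nM), 0.0102% (picoxystrobin 100 nM, pyraclostrobin 30 nM, trifloxystrobin 300 and 1000 nM) and at most 0.42% (picoxystrobin 300 nM) of genes were that low, and no member was. A single library stands behind each of these values, so none has a replicate of its own.

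All adjusted p-values are those of edgeR's quasi-likelihood test, with the Benjamini-Hochberg procedure over all tested genes, unless DESeq2 is named. The question of whether mt-Cytb followed the concentration was put to the 12 libraries of the compounds with 4 concentrations, as the slope of log2 expression per 10-fold concentration. The slope was -2.11 for pyraclostrobin (standard error, SE, 0.414, 95% interval -3.02 to -1.20, adjusted p = 0.063), and it was the largest in size of the 9752 genes tested. It did not pass the threshold of 0.05, and neither did any other gene (0.0% called by edgeR, 19.4% past an unadjusted p of 0.05, 5.8% called by DESeq2). The call rested on the choice of genes and libraries. With filterByExpr as the filter the adjusted p of mt-Cytb was 0.0405 (1.07% of genes called), with DESeq2 0.0112, and with a correction for GC content and transcript length 0.0265 at a slope of -2.28 (4.72% called). Without the picoxystrobin library at 1000 nM, which changes the spread but not this slope, it was 0.00748 (13.5% called). Without picoxystrobin at 300 nM it was 0.0151, in a fit whose share of called genes is not given here. Without the pyraclostrobin library at 1000 nM the slope was -2.11 with an adjusted p of 0.802, and leaving out each library in turn gave slopes from -2.68 to -1.88.

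For picoxystrobin the slope of mt-Cytb was -0.82 (SE 0.430, interval -1.76 to 0.13, adjusted p = 0.521, edgeR), and it rested on the library at 1000 nM. Without that library it was 0.18 (adjusted p = 0.882). Without the library at 300 nM it was -1.14 (adjusted p = 0.0417). Leaving out each library in turn gave from 0 to 951 called genes for this slope, and the number without 300 nM is not given here. Trifloxystrobin gave -0.05 (SE 0.391, interval -0.91 to 0.81, adjusted p near 1), an interval that includes the picoxystrobin slope. The slopes of pyraclostrobin and trifloxystrobin differed by -2.06 (SE 0.563, unadjusted p = 0.00368, adjusted p = 0.517, edgeR) and those of pyraclostrobin and picoxystrobin by -1.29 (SE 0.591, adjusted p = 0.474). Between picoxystrobin and trifloxystrobin the difference was -0.77 (SE 0.582, adjusted p = 0.999), so that none of the 3 pairs of compounds passed the threshold. No member was called for any of these differences (0.0% of all genes in each of the 3 pairs), and DESeq2 was not run on them. Past an unadjusted p of 0.05 was mt-Cytb alone for pyraclostrobin and trifloxystrobin (8.48% of all genes). Uqcr11 alone was past it for pyraclostrobin and picoxystrobin (10.1%), and no member for picoxystrobin and trifloxystrobin (1.08%). None was called for the slopes of picoxystrobin or trifloxystrobin either, also by DESeq2, beside 0.0% of all genes. Past an unadjusted p of 0.05 was 1 member, Uqcr11, for picoxystrobin (9.3% of all genes) and no member for trifloxystrobin (0.513%). Without picoxystrobin at 300 nM the picoxystrobin slope of Uqcr11 was 0.31 (adjusted p = 0.0460), again without the share of all genes called in that fit.

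Averaged over all concentrations of a compound, mt-Cytb did not differ from DMSO beyond the spread. With pyraclostrobin and with picoxystrobin, low and high libraries lay on either side of the controls, while those of trifloxystrobin lay around and below them. Pyraclostrobin averaged 12208 ± 9627 CPM (SD, n = 4) against 16044 ± 591 CPM (SD, n = 2) in DMSO, a log2 change of -0.39 (SE 0.60, adjusted p = 0.70, edgeR). Picoxystrobin averaged 16159 ± 6844 CPM (log2 change 0.01, adjusted p = 0.995) and trifloxystrobin 14636 ± 1630 CPM (log2 change -0.13, adjusted p near 1), both over 4 libraries. In the order of group means azoxystrobin, a single library at 1000 nM with no spread of its own, came first and pyraclostrobin last. Azoxystrobin was not tested against picoxystrobin, the next in that order. No other neighbours differed beyond their spread. When 30 and 100 nM were given a level of their own and 300 and 1000 nM another, a model added after the values were seen, mt-Cytb fell by 2.04 on the log2 scale with pyraclostrobin at 300 and 1000 nM (SE 0.430, adjusted p = 0.00704, edgeR). In that contrast 25.5% of all genes were called, and 4 of the 10 members were: mt-Cytb, Uqcrfs1, Uqcrc2 and Uqcrh. At 30 and 100 nM mt-Cytb was at 0.35 (adjusted p = 0.839), with 0% of genes called.

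Ratios between mitochondrial transcripts do not depend on the scaling of the library. mt-Cytb stood at 0.655 and 0.654 of the level of mt-Nd1 (a subunit of complex I) in DMSO. This ratio was 0.164 and 0.108 with pyraclostrobin at 300 and 1000 nM and 0.250 with picoxystrobin at 1000 nM. In the other libraries it lay between 0.515 (trifloxystrobin at 1000 nM) and 0.715 (pyraclostrobin at 30 nM). The ratio to mt-Nd4, another subunit of complex I, moved less. It was 2.39 and 2.25 in DMSO, 1.42 and 1.17 with pyraclostrobin at 300 and 1000 nM and 1.78 with picoxystrobin at 1000 nM, next to 1.86 with picoxystrobin at 300 nM. As a share of the counted mitochondrial mRNA, mt-Cytb made up 19.2% and 18.0% in DMSO, 5.77% and 3.99% in the pyraclostrobin libraries at 300 and 1000 nM and 8.99% in the picoxystrobin library at 1000 nM. The part of all reads that mitochondrial genes took ranged from 7.93% (picoxystrobin at 1000 nM) to 12.7% (picoxystrobin at 300 nM), with 9.68% and 9.50% in the low pyraclostrobin libraries against 9.30% and 9.46% in DMSO. Since the RNA came from whole cultures, fewer cells that express a gene and less of its RNA per cell cannot be told apart.

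Not all mitochondrial transcripts were low in these libraries. Of the 12 other mitochondrial mRNAs, 6 passed the filter, and the others were nearly or wholly without reads, from 0 for mt-Co3, mt-Nd4l and mt-Atp8 to between 63 and 121 counts for mt-Co2, so that the table does not measure them. With pyraclostrobin at 1000 nM, in percent of the DMSO mean and in the order of their starts on the mitochondrial genome, mt-Nd1 was at 114, mt-Nd2 at 61.3, mt-Co1 at 139, mt-Nd4 at 37.4, mt-Nd5 at 45.5, mt-Nd6 at 36.5 and mt-Cytb at 18.9. At 300 nM the values were 119, 71.2, 147, 48.7, 52.7, 43.0 and 29.8 in the same order. With picoxystrobin at 1000 nM they were 101, 62.6, 104, 49.997, 55.7, 49.04 and 38.4. In each of the 3 libraries mt-Cytb, which comes last in this order, was the lowest of the 7, while mt-Nd1 and mt-Co1 were at or above the controls. mt-Nd6 lies on the other strand. mt-Rnr1, an RNA of the mitochondrial ribosome at the start of that order, was at 2061 and 2968 CPM in DMSO and at 6751 and 9727 CPM with pyraclostrobin at 300 and 1000 nM, and at 4590 CPM with picoxystrobin at 1000 nM, above every other library. mt-Rnr2, the other ribosomal RNA, was at 4040 and 4387 CPM in DMSO, 5998 and 7863 CPM with pyraclostrobin at 300 and 1000 nM, and 3391 CPM with picoxystrobin at 1000 nM. It was thus above both controls in the low pyraclostrobin libraries and below them in the picoxystrobin library.

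**Figure D2:**
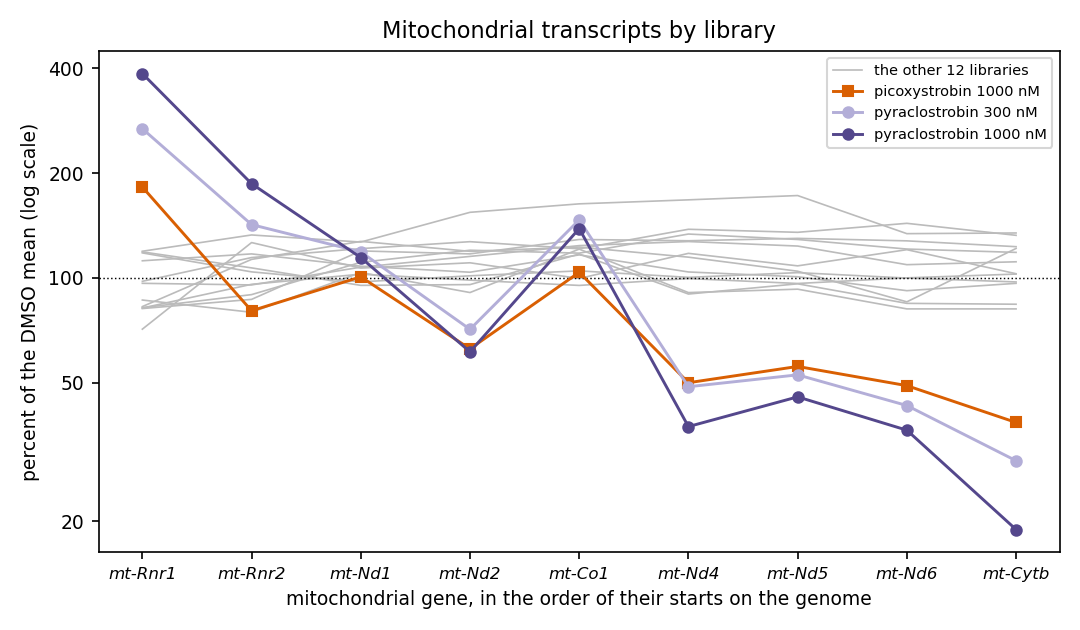
Level of 9 mitochondrial transcripts in percent of the mean of the 2 DMSO libraries (vertical log axis), ordered by their starts on the mitochondrial genome, with 1 line per library. In the 3 coloured libraries mt-Rnr1 lies above 100% (183% to 387%), mt-Rnr2 lies at 80.5% with picoxystrobin and at 142% and 187% with pyraclostrobin, mt-Nd1 and mt-Co1 lie between 101% and 147%, and mt-Cytb is the lowest transcript (18.9% to 38.4%).

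The slopes of these transcripts on pyraclostrobin concentration were -1.48 for mt-Nd6 (SE 0.324, adjusted p = 0.063) and 0.15 for mt-Co1 (SE 0.178, adjusted p = 0.685), the lowest and highest of the 6, and none of the 6 passed the threshold in edgeR's test. The genes most like mt-Cytb across the 15 libraries, by Pearson's r of log2 CPM, were mt-Nd4 (0.977), Fbxo36 (0.971), 2810004N23Rik (0.970), Tmem260 (0.969) and mt-Nd6 (0.960). These libraries include the 3 low ones, which every such gene shares.

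**Figure D3:**
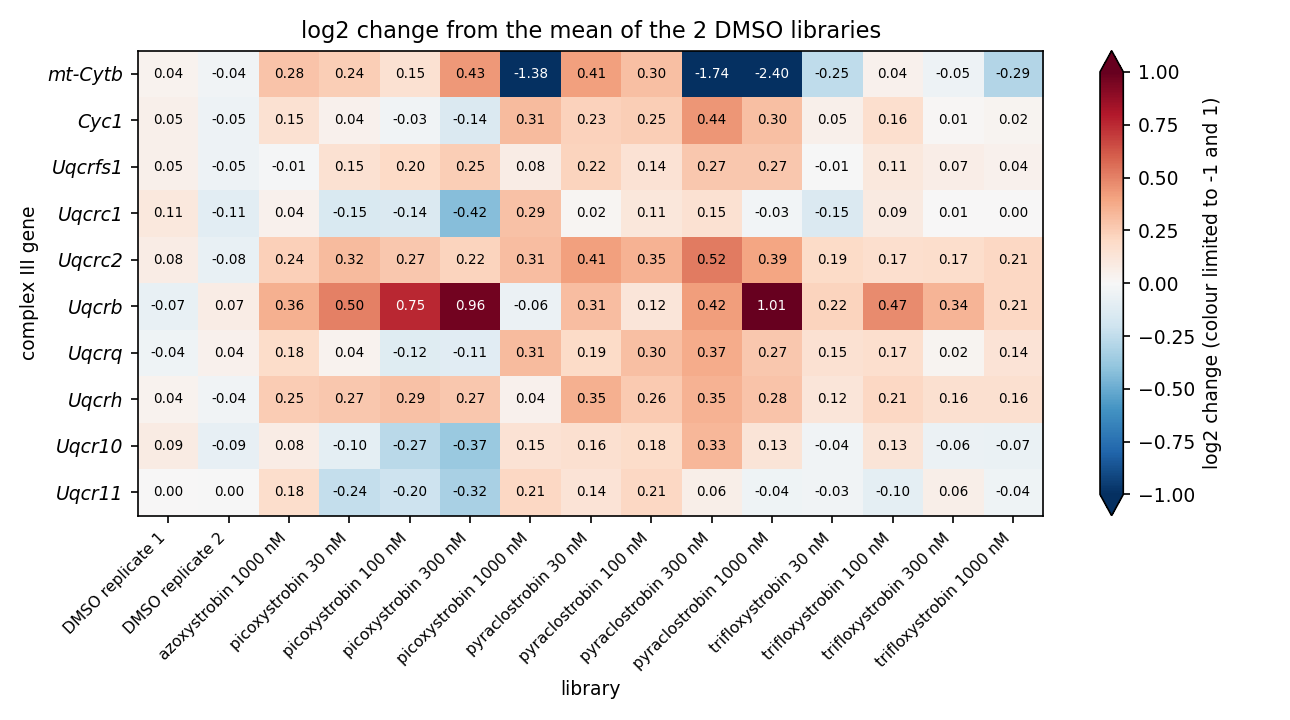
log2 change from the mean of the 2 DMSO libraries for the 10 complex III genes (rows) in the 15 libraries (columns), with the value printed in each cell and the colour limited to -1 and 1. mt-Cytb holds the 3 lowest cells (-1.38, -1.74 and -2.40), and among the nuclear genes Uqcrb holds the highest (0.96 with picoxystrobin at 300 nM and 1.01 with pyraclostrobin at 1000 nM).

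The nuclear members did not follow mt-Cytb down. With pyraclostrobin all 9 had a log2 change from DMSO above 0, between 0.06 (Uqcrc1) and 0.51 (Uqcrb), with a median of 0.28 against 0.0028 over all tested genes. Of the 10 members, 1 was called against DMSO in edgeR's test, Uqcrc2, beside 2.12% of all genes. It was called with filterByExpr too (0.628% of genes), and DESeq2 called 3 members (9.44%), Uqcrfs1, Uqcrc2 and Uqcrh. For azoxystrobin and trifloxystrobin none of the 10 was called (0.0% of all genes each), and none by DESeq2 (0.0102% and 0.0% of genes). For each, 1 member was past an unadjusted p of 0.05 in edgeR's test (1.65% and 1.27% of all genes). As azoxystrobin is a single library, its test takes the spread from the other groups alone. For picoxystrobin none was called either (0.041% of all genes), and DESeq2 called 1, Uqcrc2 (2.1% of genes). Past an unadjusted p of 0.05 in edgeR's test were 4 members for picoxystrobin (19.2% of all genes) and 5 for pyraclostrobin (25.8%). The 4 comparisons share the DMSO libraries.

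Without the picoxystrobin library at 1000 nM the counts for picoxystrobin and pyraclostrobin were higher. For picoxystrobin 5 members were called, beside 27.3% of all genes: Uqcrfs1 (0.20), Uqcrc2 (0.27), Uqcrb (0.75) and Uqcrh (0.27) were higher and Uqcr11 (-0.26) lower on the log2 scale. For pyraclostrobin 5 were then called, beside 12.8% of all genes, and all were higher: Cyc1 (0.31), Uqcrfs1 (0.23), Uqcrc2 (0.42), Uqcrq (0.29) and Uqcrh (0.31). The changes themselves were those of the full fit for pyraclostrobin, and the spread was smaller. In 7 nuclear members every pyraclostrobin library was above both DMSO libraries (18.8% of all tested genes), namely Cyc1, Uqcrfs1, Uqcrc2, Uqcrb, Uqcrq, Uqcrh and Uqcr10. The number was 3 for picoxystrobin (12.1%) and 3 for trifloxystrobin (7.09%), and no member was below both DMSO libraries in every library of a compound (14.6%, 22.1% and 8.75% of all genes for picoxystrobin, pyraclostrobin and trifloxystrobin).

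Cytochrome c1 and the Rieske protein carry electrons from ubiquinol towards cytochrome c. Cyc1, which encodes cytochrome c1 (chr15:76343523-76346260), was at 139 and 129 CPM in DMSO and 149 CPM with azoxystrobin. It was at 157, 159, 182 and 165 CPM with pyraclostrobin from 30 to 1000 nM. These values were above every DMSO and trifloxystrobin library, a pattern whose share over all genes is not given here. Cyc1 was at 138, 131, 121 and 167 CPM with picoxystrobin and 139, 150, 135 and 136 CPM with trifloxystrobin. The pyraclostrobin mean of 166 ± 11.3 CPM (SD, n = 4) was 0.31 above DMSO on the log2 scale (SE 0.112, adjusted p = 0.119, edgeR). With the correction for GC content and length it was 0.46 above (adjusted p = 0.0374, 1.79% of all genes called). Cyc1 has the highest GC content of the members, 61.4%.

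Uqcrfs1, which encodes the Rieske iron-sulfur protein (chr13:30540308-30545362), was at 166 and 154 CPM in DMSO and 159 CPM with azoxystrobin. Picoxystrobin gave 178, 184, 190 and 169 CPM in the order of concentration, pyraclostrobin 186, 177, 192 and 193 CPM, and trifloxystrobin 159, 172, 167 and 164 CPM. All picoxystrobin and pyraclostrobin libraries were above both controls (12.1% and 18.8% of all tested genes, each compound taken alone). The log2 change was 0.23 for pyraclostrobin (SE 0.0769, adjusted p = 0.100) and 0.17 for picoxystrobin (SE 0.0767, adjusted p = 0.248), neither of which passed the threshold in edgeR's test.

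The core proteins Uqcrc1 and Uqcrc2 face the matrix and descend from the mitochondrial processing peptidase. Uqcrc1 (chr9:108936633-108949623) was at 71.8 and 61.8 CPM in DMSO and 68.6 CPM with azoxystrobin. It was at 60.1, 60.4, 49.6 and 81.5 CPM with picoxystrobin, 67.6, 72.1, 74.0 and 65.4 CPM with pyraclostrobin, and 60.2, 71.0, 66.9 and 66.7 CPM with trifloxystrobin. The highest and lowest libraries were both picoxystrobin libraries, and all others were close to the controls.

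Uqcrc2 was the nuclear member with a call in the main test. It was at 40.3 and 36.3 CPM in DMSO and 45.1 CPM with azoxystrobin. It was at 50.9, 48.7, 55.01 and 50.2 CPM with pyraclostrobin, 47.8, 46.05, 44.6 and 47.3 CPM with picoxystrobin, and 43.8, 43.0, 43.1 and 44.2 CPM with trifloxystrobin. All 13 exposed libraries were above both controls, with those of pyraclostrobin the highest. They are set against the same 2 controls, and the share of all genes with this pattern is not given here. For single compounds it was 12.1% (picoxystrobin), 18.8% (pyraclostrobin) and 7.09% (trifloxystrobin) of all tested genes. Pyraclostrobin averaged 51.2 ± 2.69 CPM (SD, n = 4) against 38.3 ± 2.84 CPM (SD, n = 2), a log2 change of 0.42 (SE 0.0823, adjusted p = 0.032, edgeR). It did not change with pyraclostrobin concentration beyond its error, with a slope of 0.02 (SE 0.0906, adjusted p = 0.924). The call was lost without DMSO replicate 1 (0.50, adjusted p = 0.358) or DMSO replicate 2 (0.34, adjusted p = 0.254), each of which leaves a single control assumed to vary like the other groups. It was also lost without picoxystrobin at 30 or 100 nM, pyraclostrobin at 300 or 1000 nM or trifloxystrobin at 300 nM (adjusted p from 0.0542 to 0.123). With the correction for GC content and length the change was 0.23 (adjusted p = 0.203, 1.79% of genes called). The GC content of the Uqcrc2 transcript is 44.4%, and the correlation of log2 change with GC content across genes ran from -0.376 to -0.0958 in the pyraclostrobin libraries. Against trifloxystrobin at matched concentrations pyraclostrobin was 0.23 higher (SE 0.0769, adjusted p = 0.202), and against picoxystrobin 0.14 higher (SE 0.0767, adjusted p = 0.478).

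Uqcrb, a small subunit next to cytochrome b, had the widest range of the nuclear members. It was at 32.7 and 36.2 CPM in DMSO and 44.0 CPM with azoxystrobin. With picoxystrobin it was at 48.8, 57.99 and 67.2 CPM at 30, 100 and 300 nM and at 33.0 CPM at 1000 nM, within the controls. With pyraclostrobin it was at 42.6, 37.4, 45.98 and 69.2 CPM, and with trifloxystrobin at 40.1, 47.8, 43.6 and 39.7 CPM. Every exposed library but picoxystrobin at 1000 nM was thus above both controls, a pattern whose share over all genes is not given here. At 1000 nM, the highest concentration of both compounds, Uqcrb was the lowest of all exposed libraries with picoxystrobin and the highest with pyraclostrobin. There it was over 2-fold above the DMSO mean, as were 1.48% of all tested genes. No member was that high at 300 nM of pyraclostrobin (0.697% of genes) or picoxystrobin (0.379%), or at 30 nM of pyraclostrobin or trifloxystrobin (0.0102% each). The means of 51.7 ± 14.6 CPM for picoxystrobin and 48.8 ± 14.1 CPM for pyraclostrobin (SD, n = 4 each) gave log2 changes of 0.59 (SE 0.251, adjusted p = 0.230) and 0.51 (SE 0.250, adjusted p = 0.217), which did not pass the threshold in edgeR's test. The slope on pyraclostrobin concentration was 0.47 (SE 0.223, adjusted p = 0.273), and without the picoxystrobin library at 1000 nM its adjusted p was 0.0335 (13.5% of all genes called). Corrected for GC content and length, the log2 change was 0.20 for picoxystrobin (adjusted p = 0.631) and 0.16 for pyraclostrobin (adjusted p = 0.521). Uqcrb has the lowest GC content of the nuclear members, 40.4%.

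Uqcrq, another small subunit near cytochrome b (chr11:53427922-53430831), was at 202 and 213 CPM in DMSO and 235 CPM with azoxystrobin. It was at 238, 256, 269 and 250 CPM with pyraclostrobin, 213, 191, 192 and 258 CPM with picoxystrobin, and 230, 234, 211 and 228 CPM with trifloxystrobin. The pyraclostrobin libraries were above the controls (log2 change 0.28, SE 0.111, adjusted p = 0.133, edgeR) and so was the azoxystrobin library, while those of picoxystrobin and trifloxystrobin overlapped them.

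Uqcrh, the hinge protein that joins cytochrome c1 and cytochrome c, was at 163 and 155 CPM in DMSO and 190 CPM with azoxystrobin. It was at 203, 191, 203 and 194 CPM with pyraclostrobin, 192, 195, 192 and 164 CPM with picoxystrobin, and 173, 184, 178 and 178 CPM with trifloxystrobin. All exposed libraries were above both controls, picoxystrobin at 1000 nM by the least, and the share of all genes with this pattern is not given here. The change with pyraclostrobin was 0.31 (SE 0.0819, adjusted p = 0.0536, edgeR), just outside the threshold. It passed without pyraclostrobin at 100 nM (adjusted p = 0.0371) or picoxystrobin at 300 nM (0.0465), in fits whose shares of called genes are not given here. It also passed without picoxystrobin at 1000 nM (12.8% of all genes called) and with DESeq2 (9.44%). It was 0.08 with the correction for GC content and length (adjusted p = 0.478). The pseudogenes Uqcrh-ps1 and Uqcrh-ps2 held 16 to 34 and 102 to 180 counts per library.

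Uqcr10 and Uqcr11 encode the smallest subunits. Uqcr10 (chr11:4701973-4704342) was at 106 and 94.4 CPM in DMSO, 106 CPM with azoxystrobin, 112, 114, 126 and 109 CPM with pyraclostrobin, 93.6, 83.3, 77.5 and 111 CPM with picoxystrobin and 97.6, 110, 96.1 and 95.6 CPM with trifloxystrobin. Uqcr11 (chr10:80402997-80406830) was at 66.7 and 66.6 CPM in DMSO, 75.3 CPM with azoxystrobin, 73.4, 76.8, 69.4 and 64.8 CPM with pyraclostrobin, 56.4, 57.8, 53.2 and 77.1 CPM with picoxystrobin and 65.2, 62.3, 69.2 and 64.8 CPM with trifloxystrobin. Both were lowest with picoxystrobin at 300 nM, while picoxystrobin at 1000 nM was above the controls. Between pyraclostrobin and picoxystrobin at matched concentrations Uqcr10 differed by 0.34 on the log2 scale (SE 0.113, unadjusted p = 0.0110, adjusted p = 0.370, edgeR). No member was called in this comparison (0.0205% of all genes), between pyraclostrobin and trifloxystrobin (0.0308%) or between picoxystrobin and trifloxystrobin (0.0%), and DESeq2 called none. In the same order 3, 3 and no members were past an unadjusted p of 0.05 in edgeR's test. So were 11.7%, 18.0% and 8.63% of all genes.

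**Figure D4:**
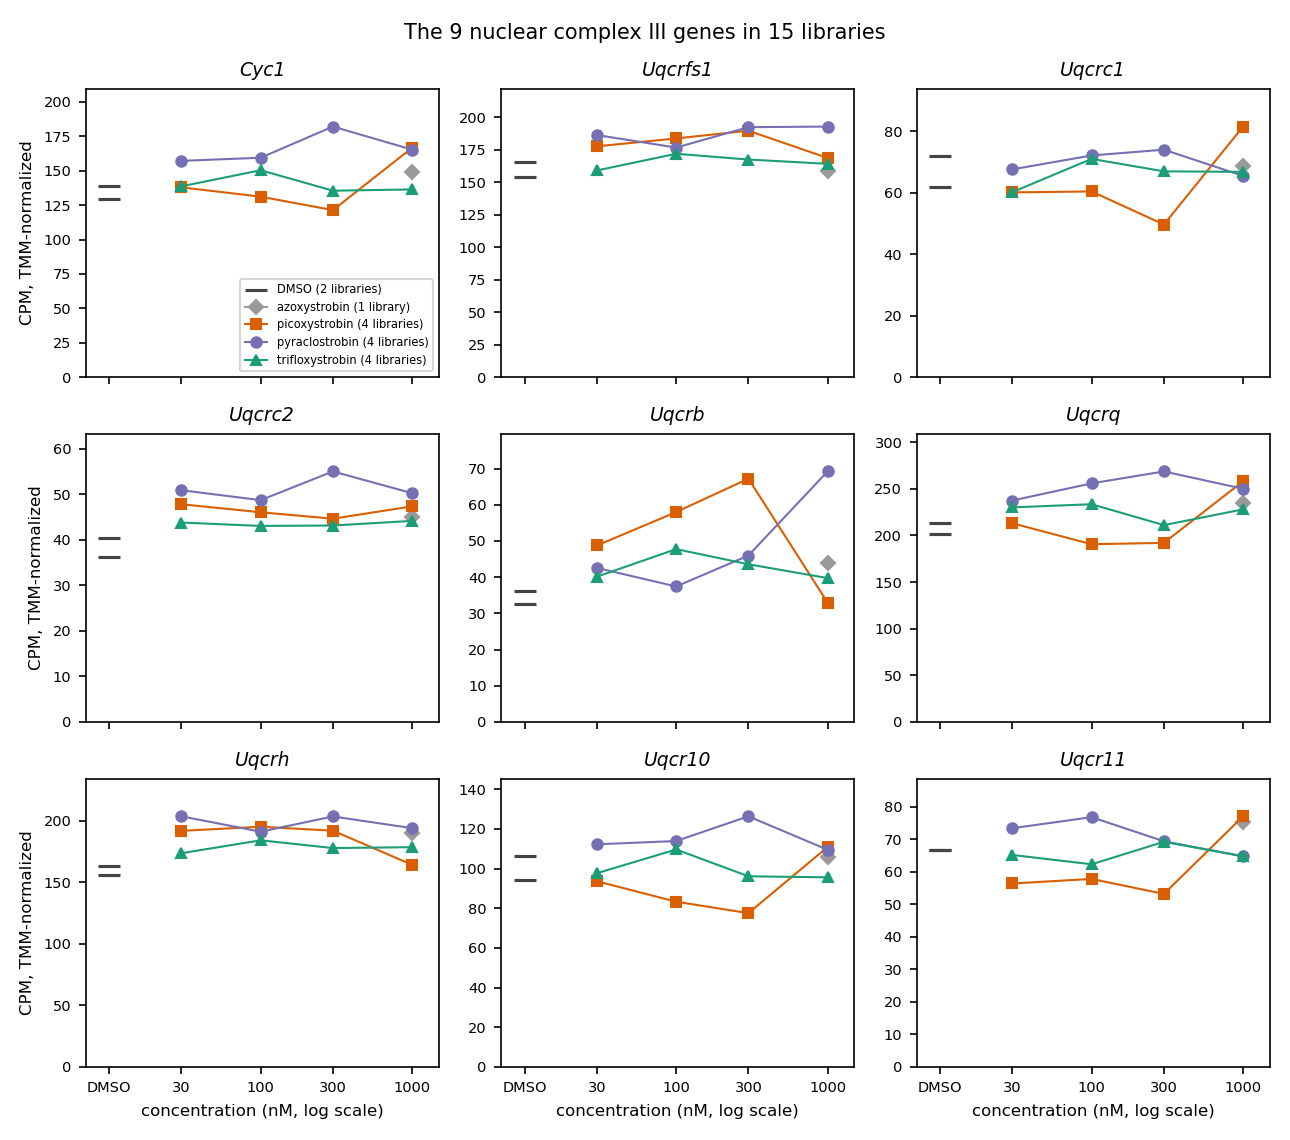
CPM of the 9 nuclear complex III genes (vertical axes, from 0) against concentration in nM on a log axis, with 1 point per library and the 2 DMSO libraries as bars at the left of each panel. The picoxystrobin library at 1000 nM departs from the picoxystrobin libraries at 30 to 300 nM in most panels, with Uqcrb at 33.0 CPM after 67.2 CPM at 300 nM and Uqcrc1 at 81.5 CPM after 49.6 CPM.

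The sides on which the nuclear members lay with picoxystrobin at 30, 100 and 300 nM went with their GC content. The 4 members with a GC content under 50% (Uqcrb, Uqcrc2, Uqcrh and Uqcrfs1, 40.4% to 48.6%) were above the DMSO mean in 12 of 12 values at 30, 100 and 300 nM. The 5 members with a GC content over 50% (Uqcrq, Uqcrc1, Uqcr10, Uqcr11 and Cyc1, 50.2% to 61.4%) were below it in 13 of 15 values. At 1000 nM the 5 were above it in 5 of 5 values and the 4 in 3 of 4. With the correction for GC content and length the log2 changes of the 9 from DMSO over all picoxystrobin libraries ran from -0.15 (Uqcr10) to 0.33 (Cyc1), and none was called (0% of all genes). The DMSO libraries themselves differed in this trend, with correlations of 0.402 and -0.402 with GC content around their mean. With 2 libraries the opposite signs are fixed by construction, and only the size is a result.

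Across the 15 libraries Cyc1 and Uqcrq (r = 0.917), Cyc1 and Uqcr10 (0.917) and Uqcr10 and Uqcrq (0.869) were the nuclear pairs that ran most closely together in log2 CPM. Uqcrb ran against Uqcr11 (-0.647) and Uqcrc1 (-0.612). mt-Cytb was negatively correlated with all 9, from -0.657 (Cyc1) to -0.035 (Uqcrh). These are descriptions over libraries that share compounds and GC trends. The genes nearest to the mean log2 CPM of the nuclear members were Cops6 (0.929), Trmt2b (0.903), 4930461G14Rik (0.898), Ppt1 (0.897) and 9130401M01Rik (0.896).

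The genes around complex III were read from 10 lists. Of their tested members 1 passed the threshold in any of the 13 comparisons, Cox7a2l, which encodes a protein that helps to join complex III and complex IV into supercomplexes. It was higher with pyraclostrobin than in DMSO (log2 change 0.50, SE 0.0987, adjusted p = 0.032, edgeR), and it was the only one called of the 12 nuclear complex IV genes tested, beside 2.12% of all genes. The alternatives were run for it after the call was seen, and the call held in 16 of 27 and was lost in 11 (log2 change 0.35 to 0.60 over all of them, adjusted p up to 0.375), among them each DMSO library left out and the correction for GC content and length (0.35, adjusted p = 0.0610). In the complex IV list the lowest change was that of Cox7c (-0.17). For picoxystrobin Cox7a2l was at 0.46 (adjusted p = 0.109).

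Of 8 factors that assemble complex III, 5 passed the filter, and with pyraclostrobin their log2 changes from DMSO ran from -0.14 (Uqcc1) to 0.28 (Bcs1l, which inserts the Rieske protein). The mitochondrial processing peptidase subunits Pmpca and Pmpcb, relatives of the core proteins, were at 0.01 and 0.33 (adjusted p = 0.0501 for Pmpcb, edgeR), next to 0.06 for Uqcrc1 and 0.42 for Uqcrc2. Among 7 tested enzymes that reduce ubiquinone, the extremes were Sdhc (-0.24) of complex II and Etfdh (0.32), which takes electrons from fatty acid oxidation. None of these was called.

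Of 11 tested genes of ubiquinone synthesis, Coq6 had the lowest change (-0.20) and Coq7 the highest (0.47, adjusted p = 0.108) with pyraclostrobin. On concentration the extremes of that list were Pdss2, which makes the side chain of ubiquinone (slope -0.58, SE 0.140, adjusted p = 0.0746), and Coq10b, a ubiquinone-binding protein (0.52, SE 0.132, adjusted p = 0.0815). For cytochrome c, Cycs was at 2.54 CPM on average and below the filter, and Hccs, which attaches its haem, was at 0.30. Of 7 nuclear core subunits of complex I, Ndufs8 was lowest (-0.14) and Ndufs1 highest (0.29). Among 5 tested factors of mitochondrial transcription and mRNA stability, the mitochondrial RNA polymerase gene Polrmt was lowest (-0.61, SE 0.183, adjusted p = 0.0779) and Tfam highest (0.21). Of 3 tested nuclear regulators, Nrf1 was at -0.19 from DMSO and had a slope of -0.45 on pyraclostrobin concentration (SE 0.140, adjusted p = 0.126), and Gabpa was at 0.08. A p that misses the threshold in a design of this size does not show that these genes stayed the same.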

How the data were processed

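RNA-seq of C17.2α cells was analysed in 16 libraries, 2 of DMSO and 14 of strobilurin concentrations. The authors made the libraries from total RNA with the Lexogen SENSE kit, sequenced them from a single end and deposited raw counts per gene from htseq-count, neither normalized nor pooled. The submitters' processing notes name Bowtie2 2.3.2.2 and mm10. The annotation and the strand setting are not given in the sources used here. Counts were scaled with TMM and tested with edgeR 4.0.16 (quasi-likelihood test, two-sided, R 4.3.3) for genes averaging over 10 CPM, with Benjamini-Hochberg adjustment over all tested genes and a threshold of 0.05. The models had 1 level per compound (15 libraries), or matched concentrations, or a slope on log10 concentration per compound (both 12 libraries). A prior count of 2 entered the log2 CPM of single libraries. Alternatives used DESeq2 1.42.0, and for GC content and transcript length natural splines with 4 degrees of freedom. Positions, lengths and sequence came from GENCODE M21 (GRCm38). limma 3.58.1, Python 3.11.15, pandas 2.3.3 and matplotlib 3.10.9 were also used, and the tests were tested on simulated data. Total counts were 12292390 to 18188099 per library, and precision is also limited by the few libraries per group. The members and gene lists were chosen with earlier results of these data known. All 10 members are named, and of each list the genes called, or otherwise the highest and lowest change, and the 5 genes most correlated with mt-Cytb or with the nuclear mean.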

Additional observations from a re-analysis of the deposited data

Results flagged for a closer look

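Of 30 groups of 4 libraries (10 members in 3 compounds), 3 held a library whose gap to the nearest of the others, relative to the range of the group, was above Dixon's 95% critical value of 0.829. Chance gives about 1 such group in 20. mt-Cytb was at 6167 CPM with picoxystrobin at 1000 nM, against 17857 to 21609 CPM at the lower concentrations. Uqcrh was at 164 CPM in the same library, against 192 to 195 CPM. Uqcr10 was at 110 CPM with trifloxystrobin at 100 nM, against 95.6 to 97.6 CPM in the other trifloxystrobin libraries. Each library of a compound is another concentration, and the part of concentration in these gaps was not tested. Of 60 differences in effect between compounds that were tested or compared, none was flagged. Differences in slope were tested, and none passed the threshold for a member. Not all of the 60 were put to a test of the difference, so the absence of a flag is no test result for the rest.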

How the results depend on the processing

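The number of members called depended on the filter, the tool and the libraries. Without a filter on low counts it was 1 for picoxystrobin and 2 for pyraclostrobin against DMSO, and 1 for pyraclostrobin against either other compound. The slopes then had 1 member called for picoxystrobin and 2 for pyraclostrobin. The share of all genes called without a filter is not given here, so these counts cannot be read as results about the members. DESeq2 gave 1 and 3 against DMSO (2.1% and 9.44% of all genes) and 1 for the pyraclostrobin slope (5.8%). filterByExpr (1.07% of all genes), the correction for GC content and length (4.72%), and 300 and 1000 nM against 30 and 100 nM (4.93%) gave 1 each for that slope. Without picoxystrobin at 1000 nM the numbers were 5, 5 and 2 (27.3%, 12.8% and 13.5% of all genes). With azoxystrobin at 100 nM in place of its twin among the controls a single control remains, and no count is given for that fit. For pyraclostrobin against DMSO the number was 0 in a fit of that compound and DMSO alone, whose share of all genes called is not given here. It was 0 for 30 and 100 nM (0% of all genes) and 4 for 300 and 1000 nM (25.5%), both chosen after seeing the data. With each library left out in turn it ranged from 0 to 5 for both compounds against DMSO, and from 0 to 2 for both slopes; a control left alone is then assumed to vary like the other groups. With the correction for GC content the 1 member called for pyraclostrobin was Cyc1 and not Uqcrc2. The cause of these changes was not tested.

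Over all members and alternatives, 2224 of 2280 values kept their side of the threshold, 11 lost it, 45 gained it, and 0 changed sign where either value was called. The only call among the members in the main tests was Uqcrc2 with pyraclostrobin against DMSO, so all 11 losses are of that call. The total of 2280 therefore says little about how stable that call is. Picoxystrobin at 1000 nM was left out both as a setting of its own and among the single libraries, so calls gained without it are counted in both. Among all genes the number called went from 4 to between 0 and 2660 (picoxystrobin against DMSO), from 207 to between 0 and 1247 (pyraclostrobin against DMSO), from 0 to at most 9 (azoxystrobin against DMSO), from 2 to at most 415, 3 to at most 818 and 0 to at most 1299 (pairs pyraclostrobin and picoxystrobin, pyraclostrobin and trifloxystrobin, picoxystrobin and trifloxystrobin), and from 0 to at most 951 and 1312 (picoxystrobin and pyraclostrobin slopes). Pairs of compounds were matched by concentration as a block. Without that block 0 members were called in each of the 3 pairs, as with it. For replicate numbers, which the labels give for DMSO alone, no paired analysis was possible because the groups compared share none.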
